A study of Mus musculus with 8 samples.

Results

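Secreted BMP antagonists were compared between 2 sorted fractions of stromal cells of the mouse small intestine. The genes described are Grem1, Chrd, Chrdl1, Nog, Fst, Fstl1 and Bmper, taken by name from the deposited count table, which gave 7 of its 53801 rows. Of these, 6 passed the filter on low counts and were tested among 15643 genes, and Nog did not pass.

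Bone morphogenetic proteins (BMPs) are secreted ligands of the TGF-β superfamily that bind receptor kinases and act through SMAD proteins. Secreted antagonists bind the ligands outside the cell and keep them from their receptors. In the intestine BMP signalling is strong along the villus and weak at the crypt base, where stromal cells that secrete antagonists help to keep epithelial stem cells from differentiating.

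The cells were YFP+ and lacked CD45, a leukocyte protein, and CD31, an endothelial protein. They were sorted by surface PDGFRα, a platelet-derived growth factor receptor of many intestinal fibroblasts, into a PDGFRα- and a PDGFRα+ fraction with 4 libraries each. Mice of both fractions carried a floxed lymphotoxin β receptor gene (Ltbr) and the PDGFRα/YFP combination that the labels name LTβRfloxPDGFRα/YFP. The labels used here give neither a Cre line by name nor the animals' age, sex or number. Libraries without the floxed allele were not analysed here. Nothing in the labels says that the libraries of a group are separate animals, so p-values measure the spread between libraries, which may be technical. Numbers 1 to 4 come from the sample titles and occur in both fractions.

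Total counts per library ran from 12926651 to 35115771. Levels are CPM, counts per 1000000 counts of scaled library size, and are not corrected for gene length unless this is said. RNA of the sort marker itself, Pdgfra, stood at 652 ± 124 CPM (SD, n = 4) in PDGFRα- and 597 ± 69.2 CPM in PDGFRα+ libraries (edgeR adjusted p = 0.971), so this RNA does not check the labels. Summed over 6 marker genes, leukocyte RNA ran from 9.36 to 38.0 CPM in PDGFRα- and from 7.54 to 13.8 CPM in PDGFRα+ libraries, with Itgam at 0 in all. Exons of Itgam overlap Gm49368 on the same strand by 3450 bases, so its 0 does not show that Itgam RNA was absent. Endothelial markers, 6 genes, ran from 74.6 to 493 and from 49.6 to 142 CPM, the highest in PDGFRα- library 4. Epithelial markers, also 6 genes, ran from 2.89 to 24.5 CPM in PDGFRα- and from 0.904 to 5.27 CPM in PDGFRα+ libraries. All 6 tested endothelial and all 4 tested epithelial markers had negative log2 fold changes (PDGFRα+ over PDGFRα-). Group-only edgeR called 0 in either list, and DESeq2 with the replicate number as a block called 3 endothelial and 1 epithelial genes lower. Smooth muscle markers, 7 genes, ran from 401 to 1797 CPM in PDGFRα- and from 473 to 1474 CPM in PDGFRα+ libraries. Pericyte markers, 5 genes, ran from 826 to 1597 and from 687 to 1240 CPM, most of it Rgs5, at a mean of 955 and 820 CPM.

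Chrdl1 was 3.18-fold lower in PDGFRα+ than in PDGFRα- cells and passed the test. Grem1 had a 1.98-fold lower mean in PDGFRα+ cells and passed the test under some models of the libraries but not under the primary one. Fstl1 had the opposite order, at a mean 1.25-fold higher in PDGFRα+ cells, and did not pass the primary test. Of the other models, only DESeq2 with the replicate number as a block called Fstl1 (adjusted p = 0.037). In edgeR's quasi-likelihood test with group as the only term, 1 of the 6 tested genes was called lower, against 0.0511% of all tested genes, and 0 were called higher, against 0.192% (0.243% in either direction). At an unadjusted p under 0.05 the counts were 2 lower, against 3.22% of all tested genes, and 1 higher, against 3.73% (6.95% in either direction). When the model held the replicate number as a block, edgeR called 2 lower, Chrdl1 and Grem1, against 0.933% of all tested genes, and 0 higher, against 1.34% (2.27% in either direction). DESeq2 with group only called 2 lower, against 0.669% of its genes, and 0 higher, against 0.899% (1.57% in either direction). DESeq2 with the block called 2 lower, against 2.52%, and 1 higher, Fstl1, against 2.3%. The median log2 fold change of the 6 genes was -0.17, and that of all tested genes was -0.01. In 3 of the 6 genes the libraries of the fractions did not overlap, 2 lower and 1 higher in PDGFRα+ cells, against 2.36% and 2.69% of all tested genes (5.05% in either direction).

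**Figure D1:**
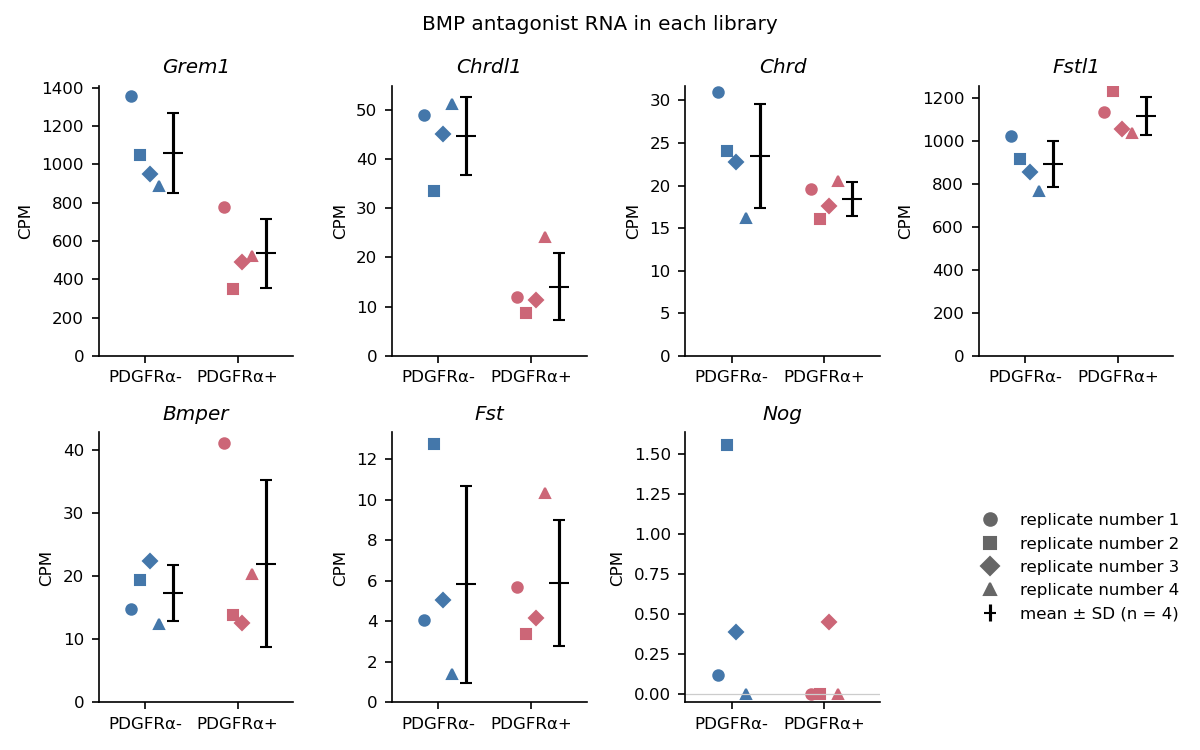
Level of each antagonist gene in CPM (vertical axes from 0, a separate scale for each gene) in the 4 PDGFRα- and 4 PDGFRα+ libraries, with symbols for the replicate number and black bars for the mean ± SD, left out for Nog. The fractions are fully separated for Grem1, Chrdl1 and Fstl1, and a single library is highest by far for Bmper in PDGFRα+ cells and for Nog in PDGFRα- cells.

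Grem1 encodes gremlin 1, a cystine-knot antagonist of BMP2 and BMP4 (ENSMUSG00000074934, GRCm38, chromosome 2, 113746164 to 113758646, minus strand). In the order of their numbers, the PDGFRα- samples held 1358, 1048, 948 and 889 CPM. The PDGFRα+ samples held 779, 348, 489 and 523 CPM in the same order. The highest PDGFRα+ library, number 1, lay below the lowest PDGFRα- library, and PDGFRα+ was lower in 4 of 4 same-numbered pairs, at 0.332 to 0.588 of its partner. Means were 1061 ± 209 and 534 ± 180 CPM (SD, n = 4), with a log2 fold change of -0.99 ± 0.23 (SE, 95% interval -1.48 to -0.50). The edgeR adjusted p was 0.113 with group only and 5.63e-04 with the block, so the call rests on how the libraries are modelled. Group-only DESeq2 also called it (adjusted p = 0.00755). The authors' deposited table lists a log2 fold change of -1.04 with an adjusted p of 1.34e-11. DESeq2 with the block gave the same values from the same counts, so the deposited values are not a separate result. Without PDGFRα+ library 1, the highest of its group, group-only edgeR gave -1.22 and called Grem1 (adjusted p = 0.0473), while Chrdl1 was then not called (0.117).

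A promoter sequence was in the RefSeq table of GRCm38.p6 for 4 of the 7 genes, Grem1, Chrd, Fstl1 and Bmper. The 250 bases before the annotated start are printed for Grem1, the most abundant antagonist of the PDGFRα- fraction, and for Chrd, a gene of the same role that did not pass the test, since both hold the letters GGCGCC. The Grem1 stretch is chr2:113758649-113758898, minus strand, and the Chrd stretch is chr16:20732877-20733126, plus strand. Capitals mark GGCGCC, a GC-rich motif known for SMAD binding, and CAGAC, the short SMAD motif, each searched on both strands with no overlap between them.
Grem1: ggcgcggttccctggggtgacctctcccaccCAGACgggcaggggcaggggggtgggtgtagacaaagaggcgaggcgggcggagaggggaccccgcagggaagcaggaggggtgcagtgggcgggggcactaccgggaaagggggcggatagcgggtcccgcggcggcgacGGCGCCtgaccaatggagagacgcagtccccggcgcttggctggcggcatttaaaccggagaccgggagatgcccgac
Chrd: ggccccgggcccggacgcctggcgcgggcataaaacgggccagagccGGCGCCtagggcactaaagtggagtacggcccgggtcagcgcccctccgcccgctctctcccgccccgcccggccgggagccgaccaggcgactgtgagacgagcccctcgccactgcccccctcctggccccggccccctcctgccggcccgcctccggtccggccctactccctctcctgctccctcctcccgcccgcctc
GGCGCC lies 78 to 73 bases before the Grem1 start and 203 to 198 bases before the Chrd start, and CAGAC lies 219 to 215 bases before the Grem1 start. The stretches are 72.0% and 78.0% G or C, against a median of 52.4% over 32851 promoter windows of the same length. Of these windows 9.59% hold GGCGCC and 42.2% hold CAGAC. Neither motif was found in the windows of Fstl1 and Bmper. The Fstl1 window, chr16:37776805-37777054, runs past the gene start used here, 37776873, so it is not wholly before that start. Of 3 other motifs searched, a GLI motif and TATAAA had 0 matches in all 4 windows. The Sp1 motif GGGCGG had 3 matches for Grem1, 4 for Chrd, 2 for Fstl1 and 1 for Bmper, and 32.7% of all windows hold it. A match describes letters only, and binding was not measured.

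Chrdl1 encodes chordin-like 1, a secreted protein with chordin-type cysteine-rich repeats that binds BMP4 (ENSMUSG00000031283, chromosome X, 143285674 to 143394262, minus strand). The PDGFRα- samples, by number, held 48.9, 33.5, 45.1 and 51.2 CPM. The PDGFRα+ samples held 12.0, 8.81, 11.3 and 24.1 CPM. The fractions did not overlap, and PDGFRα+ library 4 stood above the other 3 of its group. Ratios to the same-numbered partner were 0.245, 0.263 and 0.250 for numbers 1 to 3 and 0.470 for number 4. Chrdl1 was 3.18-fold lower in mean CPM (44.7 ± 7.88 and 14.03 ± 6.83, SD, n = 4), with a log2 fold change of -1.68 ± 0.30 (SE, 95% interval -2.33 to -1.03). It passed the edgeR test with group only (adjusted p = 0.0399) and with the block (adjusted p = 5.03e-04). With 1 library left out, the group-only call was lost in 7 of 8 cases (edgeR adjusted p up to 0.148, log2 fold change -1.51 to -2.06) and was kept without PDGFRα+ library 4 (0.00415). The blocked call was kept in all 4 cases with 1 number left out (adjusted p up to 0.0161).

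Chrd encodes chordin, the founding member of the family with cysteine-rich repeats (ENSMUSG00000006958, chromosome 16, 20733127 to 20742384, plus strand). By number, PDGFRα- samples held 30.9, 24.0, 22.8 and 16.1 CPM and PDGFRα+ samples held 19.6, 16.1, 17.6 and 20.5 CPM. The fractions overlapped, since PDGFRα- library 4 was as low as the lowest PDGFRα+ library, and 3 of 4 same-numbered pairs were lower in PDGFRα+. With a log2 fold change of -0.35 ± 0.25 (SE), a 95% interval from -0.89 to 0.19 and an edgeR adjusted p of 0.920, Chrd gave no detectable difference. Exons of Chrd overlap those of Thpo on the other strand by 239 bases, and whether the counting used strand is not given in the sources used here.

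Fstl1 encodes follistatin-like 1, a secreted glycoprotein that can bind BMP4 (ENSMUSG00000022816, chromosome 16, 37776873 to 37836514, plus strand). PDGFRα- libraries 1 to 4 had 1022, 917, 858 and 769 CPM. PDGFRα+ libraries 1 to 4 had 1136, 1233, 1055 and 1039 CPM. All 4 PDGFRα+ libraries lay above all PDGFRα- libraries by a small margin, and the spread within each group was the narrowest of the 7 genes, at 11.9% and 7.98% of the mean. The log2 fold change was 0.32 ± 0.15 (SE, 95% interval 0.00 to 0.65). Fstl1 did not pass the edgeR test with group only (unadjusted p = 0.0497, adjusted p = 0.718) or with the block (adjusted p = 0.146). The authors' deposited table lists it at a log2 fold change of 0.316 with an adjusted p of 0.037, in a list with 4.82% of its genes called. These are also the values of DESeq2 with the block on the same counts, so they are not a separate result.

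Fst encodes follistatin, which binds activins tightly and some BMPs more weakly (ENSMUSG00000021765, chromosome 13, 114452290 to 114458951, minus strand). By number, PDGFRα- samples held 4.07, 12.7, 5.07 and 1.41 CPM and PDGFRα+ samples held 5.67, 3.36, 4.16 and 10.3 CPM. The high libraries had different numbers in the 2 fractions, number 2 in PDGFRα- and number 4 in PDGFRα+, and the ratio within same-numbered pairs ran from 0.264 to 7.34. The log2 fold change of 0.01 had a 95% interval from -1.32 to 1.35 (edgeR adjusted p = 0.999), so a difference of 2-fold in either direction lay inside it. Its sign changed when single libraries were left out, from -0.40 without PDGFRα+ library 4 to 0.75. Exons of Fst overlap Gm47040 on the other strand.

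Bmper encodes a secreted BMP-binding protein, the relative of fly crossveinless-2, which can limit or promote BMP signalling depending on context (ENSMUSG00000031963, chromosome 9, 23223076 to 23485200, plus strand). PDGFRα- libraries 1 to 4 had 14.9, 19.5, 22.5 and 12.5 CPM, and PDGFRα+ libraries 1 to 4 had 41.2, 13.9, 12.6 and 20.4 CPM. PDGFRα+ library 1 alone lay above the PDGFRα- range. The log2 fold change was 0.35 ± 0.37 (SE, 95% interval -0.44 to 1.13, edgeR adjusted p = 0.970), and without that library it was -0.15.

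Nog encodes noggin, a high-affinity antagonist of BMP2 and BMP4 (ENSMUSG00000048616, chromosome 11, 89300638 to 89302332, minus strand). By number, PDGFRα- samples held 3, 31, 5 and 0 raw counts and PDGFRα+ samples held 0, 0, 14 and 0. A count of 0 allows up to 3 counts, which is 0.0854 to 0.231 CPM of the unscaled totals of those 4 libraries and covers counting error only. PDGFRα- library 2 held most of the Nog reads, and the gene had too few counts to be tested.

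**Figure D2:**
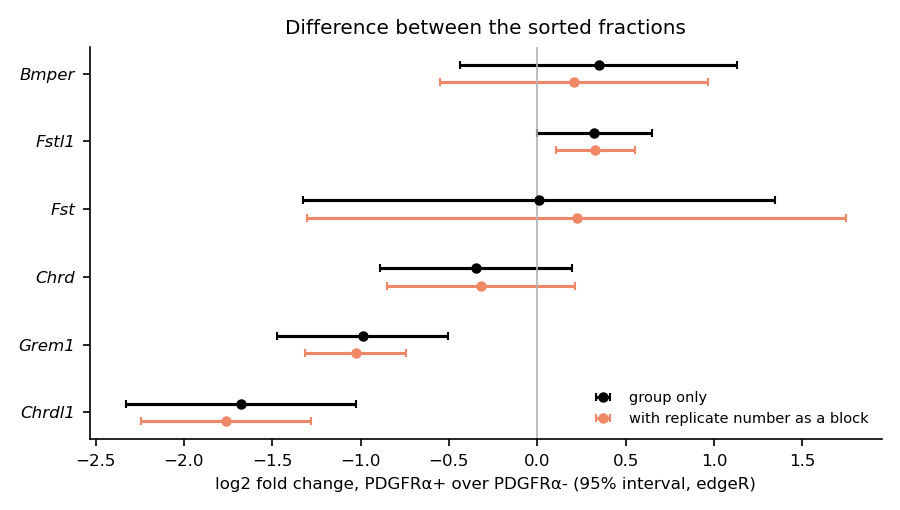
Log2 fold change of the 6 tested antagonist genes, PDGFRα+ over PDGFRα-, with 95% intervals from 2 edgeR fits, group only (black) and blocked by replicate number (orange). Both intervals lie below 0 for Chrdl1 and Grem1 and are widest for Fst, from -1.32 to 1.35 with group only.

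To compare levels between genes, CPM was divided by annotated exon length in kilobases. On this scale PDGFRα- cells had Grem1 first at 256 ± 50.4 CPM per kb (SD, n = 4), then Fstl1 at 182 ± 21.6. Far below came Chrdl1 at 6.61 ± 1.17, Chrd at 3.75 ± 0.97, Bmper at 3.58 ± 0.93, Fst at 1.27 ± 1.06 and Nog at 0.31 ± 0.42. PDGFRα+ cells had Fstl1 first at 227 ± 18.1 CPM per kb and Grem1 second at 129 ± 43.3. Bmper followed at 4.55 ± 2.74, then Chrd at 2.95 ± 0.32, Chrdl1 at 2.08 ± 1.01, Fst at 1.28 ± 0.68 and Nog at 0.07 ± 0.13. Over both fractions Fstl1 and Grem1 ranked 105 and 112 of 15622 tested genes with a known length, whereas the next member, Chrdl1, ranked 6645. The 2 abundant antagonists thus exchanged places between the fractions. Chrd and Bmper overlapped in range in both fractions and Chrdl1 overlapped with both of them only in PDGFRα+ cells. In PDGFRα- cells the lowest Chrdl1 library, at 4.96 CPM per kb, lay just above the highest Chrd and Bmper libraries.

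Ratios between genes of the same library do not depend on scaling between libraries. On the per-length scale Grem1 stood at 1.31 to 1.57 times Fstl1 in the PDGFRα- libraries and at 0.334 to 0.812 times Fstl1 in the PDGFRα+ libraries. Against Bmp4, which encodes a ligand that gremlin 1 binds, Grem1 stood at 3.52 to 4.40 in PDGFRα- and at 1.03 to 2.29 in PDGFRα+ libraries. Chrdl1 over Chrd ran from 1.29 to 2.94 and from 0.507 to 1.09. Geometric means of the ratios were lower in PDGFRα+ libraries by a factor of 2.56 for Grem1 over Fstl1, 2.54 for Grem1 over Bmp4 and 2.73 for Chrdl1 over Chrd. Each had p = 0.0286 in a two-sided exact permutation test (n = 4 against 4), the smallest p this design can give, and 0.0286 after adjustment over the 3 ratios. These 3 ratios were chosen after the levels had been seen, so the tests describe these libraries and are not independent support. The adjustment does not cover that choice. For Grem1 over Fstl1 the p was fixed in advance, since both genes were fully separated between the fractions in opposite directions. Of the summed per-length level of the 7 genes, Grem1 made up 54.5% to 59.4% in PDGFRα- and 24.5% to 43.3% in PDGFRα+ libraries. With Fstl1 left out of the sum, Grem1 made up 90.5% to 95.3% in every library of both fractions.

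**Figure D3:**
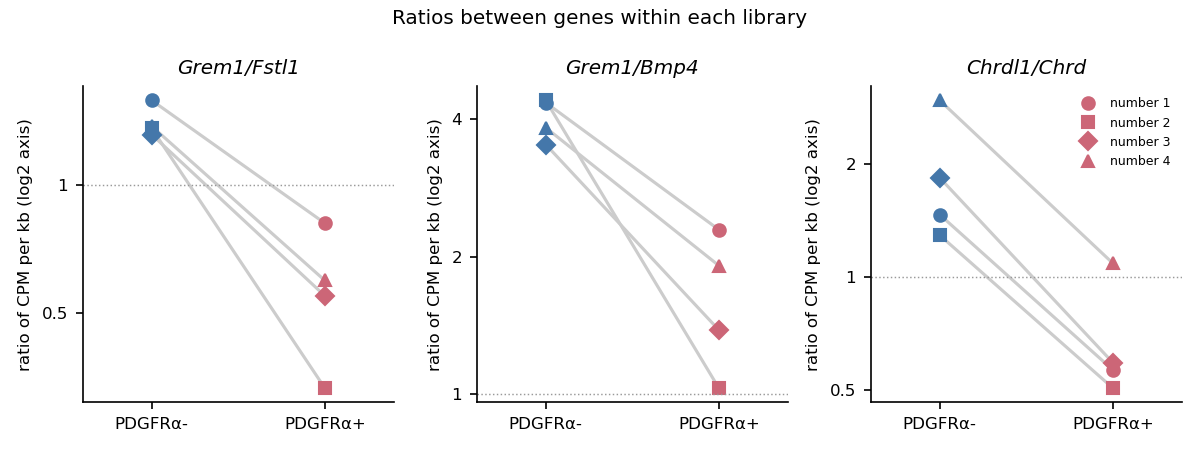
Ratio of CPM per kb between genes within each library (log2 vertical axes), with symbols for the replicate number, grey lines joining same-numbered libraries and a dotted line at equal levels. All 4 lines fall from PDGFRα- to PDGFRα+ in each panel, and Grem1 lies above Fstl1 in every PDGFRα- library and below it in every PDGFRα+ library.

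Other genes of the pathway were described from lists that do not include the 7 genes. Of 15 other extracellular antagonists and modulators, 10 were tested, 5 with positive and 5 with negative log2 fold changes. Group-only edgeR called 0 of them (3 at an unadjusted p under 0.05 in all, 2 higher and 1 lower), group-only DESeq2 1, and the blocked edgeR fit 2, both higher. These were Vwc2, which encodes a secreted protein with chordin-type repeats, at 22.2 ± 6.09 and 50.8 ± 22.0 CPM (blocked edgeR adjusted p = 0.0230), and Nbl1, which encodes the antagonist DAN, at 94.2 ± 31.5 and 137 ± 54.7 CPM (0.0474). Leaving out any number ended the blocked call of Nbl1, and leaving out number 1, 2 or 3 ended that of Vwc2. Proteases that cleave chordin, Bmp1, Tll1 and Tll2, had 0 calls in each of the edgeR and DESeq2 fits. In group-only edgeR 0 had an unadjusted p under 0.05, while blocked edgeR gave Tll1 an unadjusted p of 0.0232 (adjusted p = 0.297, log2 fold change -2.02). Bmp1, the abundant one of the 3, stood at 361 ± 52.7 and 334 ± 35.8 CPM, and Tll1 at 6.50 ± 6.61 and 1.504 ± 1.33 CPM.

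Among 15 BMP and GDF ligand genes 10 were tested, with a median log2 fold change of 0.27. Group-only edgeR called 0 (2 higher and 1 lower at an unadjusted p under 0.05), group-only DESeq2 2 higher, and the blocked edgeR fit 2 higher and 1 lower. Bmp5 stood at 20.4 ± 8.82 and 59.1 ± 26.7 CPM and Bmp6 at 53.1 ± 12.4 and 100 ± 10.7 CPM, both called higher with the block (edgeR adjusted p = 0.00215 and 0.00826) except when number 3 was left out (0.0551 and 0.0969). Gdf6 stood at 109 ± 22.9 and 49.8 ± 23.6 CPM and was lower at an edgeR adjusted p of 0.00321 in the blocked fit, a call kept whichever number was left out. Bmp4 and Bmp2, named after their values were seen as ligands that gremlin 1 binds, were not called, at 142 ± 19.9 and 177 ± 19.4 CPM for Bmp4 and 152 ± 75.4 and 113 ± 59.4 CPM for Bmp2. Summed over the ligand list per length, ligand RNA ran from 135 to 193 CPM per kb in PDGFRα- and from 162 to 190 in PDGFRα+ libraries. Grem1 alone stood at 1.11 to 1.87 times that sum in PDGFRα- and at 0.516 to 1.13 times in PDGFRα+ libraries, so these ranges touched through PDGFRα- library 4 and PDGFRα+ library 1. Exons of Bmp4, Bmp5 and Bmp6 overlap other genes on the opposite strand, by 89, 1878 and 224 bases. The Bmp5 overlap, with Gm26903, is a large part of its 4025 exon bases, and its effect on the Bmp5 counts was not tested. Of the activin and myostatin ligands, partners of follistatin, 3 of 4 were tested, and each edgeR and DESeq2 fit called 0 (0 had an unadjusted edgeR p under 0.05). Inhba was at 5.54 ± 2.87 and 7.42 ± 5.30 CPM and Inhbb at 6.41 ± 11.6 and 1.54 ± 1.94 CPM.

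All 12 receptor and co-receptor genes were tested, 3 with positive and 9 with negative log2 fold changes. With group only edgeR and DESeq2 called 0 (1 higher and 1 lower at an unadjusted p under 0.05 in edgeR), and blocked edgeR called 1, the type I receptor gene Bmpr1b, at 15.9 ± 6.94 and 37.3 ± 12.4 CPM (adjusted p = 0.0107), which was lost without number 1 or 3. Bmpr1a at 191 ± 19.8 and 183 ± 24.9 CPM and Bmpr2 at 236 ± 35.7 and 233 ± 21.2 CPM, named here after their values were seen, had log2 fold changes of -0.06 and -0.02. Of 13 signal transducer and response genes 12 were tested, with Msx2 at 0 counts in all libraries. Group-only edgeR and DESeq2 called 0 (0 higher and 3 lower at an unadjusted p under 0.05 in edgeR), and blocked edgeR called 1 lower, Id2, an inhibitor of bHLH factors that BMP signalling induces in many cells. Id2 stood at 94.8 ± 17.0 and 62.1 ± 10.1 CPM (blocked edgeR adjusted p = 0.0402) and was not called when any number was left out.

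**Figure D4:**
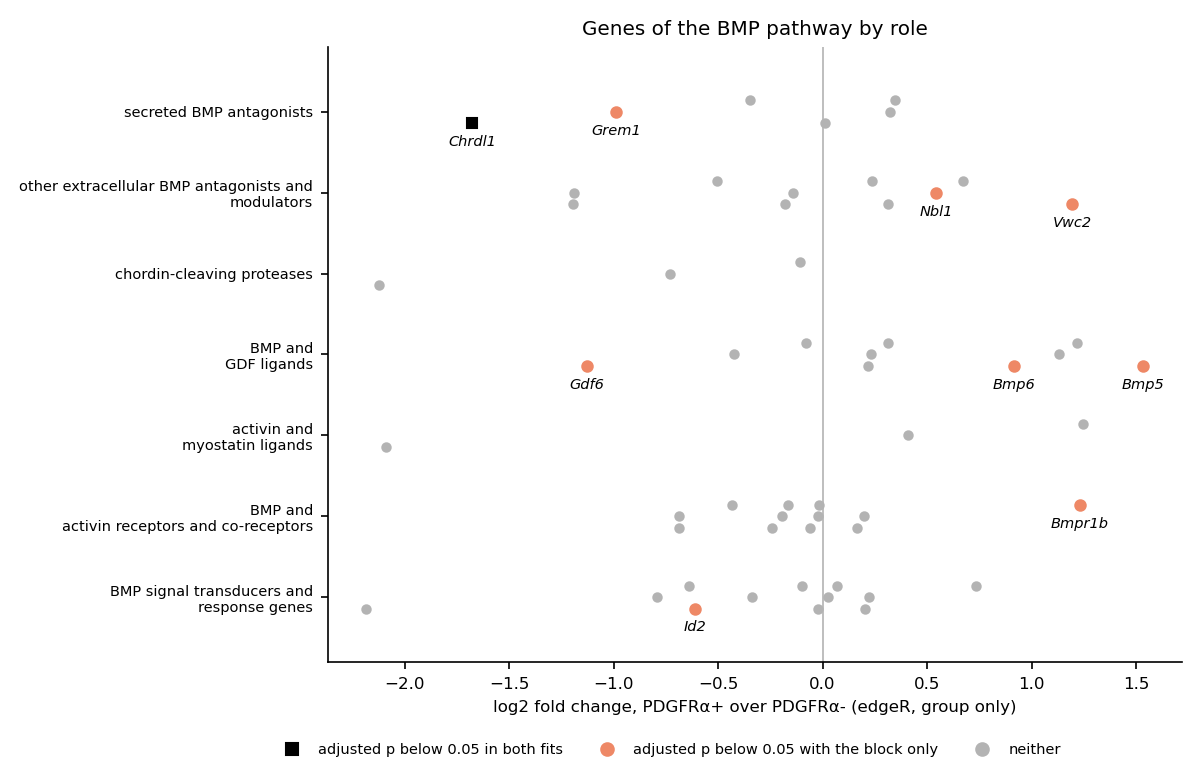
Log2 fold change, PDGFRα+ over PDGFRα-, from edgeR with group only (horizontal axis) for every tested gene of 7 lists of the BMP pathway (rows, with points offset for legibility). Black squares passed the adjusted p of 0.05 in both fits, orange points with the replicate block only and grey points in neither, and Chrdl1 at -1.68 is the single black square.

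Profiles like those of the antagonist genes were sought among the other genes with a mean of at least 20 CPM, as the smallest root mean square difference of centred log2 CPM over the 8 libraries, which the difference between fractions also shapes. Nearest to Grem1 was Cd81, a tetraspanin gene and marker of trophocytes, at a difference of 0.12, followed by Steap3 at 0.14 and Layn at 0.15. These 3 genes stood at 135, 41.6 and 45.3 CPM in PDGFRα- and 69.3, 23.3 and 24.4 CPM in PDGFRα+ cells on average. Nearest to Chrdl1 were Angptl1 at 0.33, Angpt1 at 0.41 and Cdkn1c at 0.44, genes of 2 angiopoietin-related secreted proteins and a cell cycle inhibitor. Fstl1 was nearest to Loxl2, a lysyl oxidase family gene, at 0.06, the actin gene Actb at 0.07 and Ankfy1 at 0.08. Chrd was nearest to Lmo4 at 0.08, Ppp2r1b at 0.14 and Islr at 0.15. Bmper was nearest to Rnf121, Wwox and Adam23 at 0.26 to 0.27. Fst had the most distant neighbours of the 6 tested members, Mt2, Mapk9 and Mtif2, at 0.57 to 0.60.

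Trophocytes are crypt-base fibroblasts that are known for Grem1. Of 7 marker genes of trophocytes and adventitial fibroblasts, all tested, 6 had negative log2 fold changes. Group-only edgeR called 0 (the blocked fit called 2 lower, Cd81 and Rspo3). Their summed level ran from 670 to 961 CPM in PDGFRα- and from 524 to 721 CPM in PDGFRα+ libraries. Of 7 telocyte markers, subepithelial fibroblasts known for BMP ligands, 6 were tested and 5 had positive log2 fold changes. Group-only edgeR called 1 higher, Wnt4, and the blocked fit called 2 higher, Wnt4 and Bmp5. Bmp5 and Bmp7 are also in the ligand list, so the telocyte list is not separate from it. Wnt5a went the other way, at a log2 fold change of -0.50, and was lower in 4 of 4 same-numbered pairs. The summed telocyte markers ran from 114 to 126 and from 144 to 229 CPM, with Foxl1 at 0 in all libraries. Part of this difference in sums is Bmp5, at a mean of 20.4 and 59.1 CPM. Of the 5 pericyte markers, 4 had negative log2 fold changes and 1, Cspg4, a positive one. Group-only edgeR called 0 of them, and the blocked fit called 1 lower and 1 higher. Both were without overlap between the fractions, as were 5.05% of all tested genes. Abcc9, a potassium channel subunit gene, stood at 83.9 ± 12.3 and 34.8 ± 17.8 CPM (edgeR adjusted p = 0.183, and 0.00527 with the block). Cspg4, which encodes the proteoglycan NG2, stood at 32.9 ± 11.9 and 73.0 ± 20.7 CPM (edgeR adjusted p = 0.113, and 0.0402 with the block). In sorted bulk samples fewer cells of a type and less RNA per cell cannot be told apart, and the part of these marker levels in the Grem1 and Chrdl1 values was not tested. Without PDGFRα- library 4, where endothelial markers summed highest, the group-only log2 fold changes were -1.06 for Grem1 and -1.60 for Chrdl1 (edgeR adjusted p = 0.0925 and 0.0580).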

How the data were processed

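Stromal cells were sorted and sequenced after a stranded low-input preparation of total RNA, per the labels' protocols. The submitters' processing notes name cutadapt 3.4, STAR 2.7.3a, featureCounts 2.0.1, DESeq2 and GRCm38 (mm10). The strand setting of the counting is not given in the sources used here, nor is the annotation release. Each row of the deposited table gives raw counts per library. The same deposited table holds size-factor-scaled values, group means and dispersions (read as a score), a fold change ratio, a log2 fold change and a p-value per gene, used only where named.

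Counts were tested with edgeR 4.0.16 in R 4.3.3 (quasi-likelihood, robust, TMM, filterByExpr, group as the only term, Benjamini-Hochberg threshold 0.05). SE is the log2 fold change over the root of F, and intervals are 95%. DESeq2 1.42.0, RLE and upper quartile scaling, no filter, and libraries left out were alternatives, and the test was checked on simulated data. Symbols are those of the deposited table, and positions and exon lengths come from GENCODE M21.

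Replicate numbers 1 to 4 occur in both groups. The labels do not say what same-numbered libraries share, so the primary fit has no block. The dispersions in the authors' deposited table differ by at most 8.73e-04% from a DESeq2 model with number and group, so the blocked fit is given where it changes a call. No libraries were duplicates (chi-square over its degrees of freedom 35.7 to 154 in pairs of libraries).

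The text names the 7 members, pathway genes called in either fit (otherwise the 2 most abundant of a list), and the 3 nearest profiles per tested member. Bmp4, Bmp2, Bmpr1a, Bmpr2 and marker genes of cell types are named outside this rule, after their values were seen. Members and lists were chosen with earlier results of these data known.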

Additional observations from a re-analysis of the deposited data

Results flagged for a closer look

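In 3 cases a single library stood apart from the other 3 of its group by Dixon's ratio of gap to range (95% critical value), among 36 groups of 4 checked. Chance alone flags about 1 group in 20. Nog was at 0.452 CPM in PDGFRα+ library 3 and at 0 in the others (14 counts). Bmp1 was at 388 CPM in PDGFRα+ library 1, above the other 3 libraries. Inhbb was at 23.8 CPM in PDGFRα- library 4, the library with the highest sum of endothelial markers.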

How the results depend on the processing

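With the replicate block, group-only DESeq2, blocked DESeq2 or no filter on low counts, the members called lower numbered 2 in each case in place of 1, the second being Grem1, and blocked DESeq2 called 1 member higher, Fstl1. Over all genes these settings called 146, 116, 423 and 110 lower in place of 8, and 209, 156, 386 and 167 higher in place of 30. RLE and upper quartile scaling kept the member counts. Leaving out single libraries gave 0 to 1 members lower (Grem1 without PDGFRα+ library 1, Chrdl1 without PDGFRα+ library 4), 0 to 11 genes lower and 7 to 39 higher in all. In the paired fit, leaving out a number kept 2 members lower and gave 22 to 115 genes lower and 77 to 185 higher. Signs of genes that were not called changed when single libraries were left out: log2 fold changes ran from -0.40 to 0.75 for Fst, -0.15 to 0.55 for Bmper, -0.19 to 0.74 for Inhba and -3.31 to 1.32 for Inhbb, and in the paired fit from -0.56 to 0.96 for Fst and -0.22 to 0.57 for Bmper. The cause of these differences was not tested. Grem1 ran from -1.22 to -0.83 and Chrdl1 from -2.06 to -1.51 over all settings of the group-only fit, and no setting changed their direction. Whether the numbers pair the libraries is not settled: deviations from group means, over 15643 genes, had correlations of 0.231, 0.182, 0.023 and 0.248 for numbers 1 to 4, the third under the 0.1 required, yet 7 of 8 libraries correlated best with the one of their own number. Nog had too few counts to be tested.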
